A study of Homo sapiens with 12 samples.

Results

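The LDL receptor related proteins form a family of cell surface receptors, and 10 of their genes were followed here among the 57500 genes of the count files: LRP1, LRP3, LRP4, LRP5, LRP6, LRP8, LRP10, LRP11, LRP12 and SORL1. The genes were chosen by name, with earlier results of these data known. LRP1 and LRP10 were picked because their counts fell in the cell lines compared here. The values of those 2 genes are therefore given as a description with no test, and tests are given for the other 8. RNA was sequenced from HepG2 cells, a human hepatocellular carcinoma line, in 3 groups of 4 libraries. WT cells were unmodified. The shTST line carried, after lentiviral transduction and blasticidin selection, a short hairpin RNA against TST, the gene of thiosulfate sulfurtransferase (rhodanese), an enzyme that converts cyanide to thiocyanate. The overTST line carried, after the same kind of transduction and selection, a codon-optimized TST driven by the constitutive CMV promoter. All 12 cultures were kept for 24 h in ordinary medium with 400 µM glycine. The comparator cells were wild type and not cells with an empty vector, so transduction and selection cannot be told apart from the change in TST. Each line is 1 selected population, and by the study's general definition replicates come from different days with newly seeded cells, so that p-values measure the spread between cultures of 1 line.

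Members of the family share ligand-binding repeats of the LDL receptor type in the extracellular part and carry short cytoplasmic motifs for endocytosis. In hepatocytes LRP1 is known as a receptor for apolipoprotein E-rich remnants, protease-inhibitor complexes and alpha-2-macroglobulin. LRP5 and LRP6 are coreceptors of Wnt ligands beside Frizzled proteins, LRP4 binds agrin and Wnt inhibitors, and LRP8 binds apolipoprotein E and reelin. SORL1 combines LDL receptor repeats with a VPS10P domain and sorts cargo between Golgi and endosomes. LRP10, LRP3 and LRP12 form a branch with CUB domains, of which LRP10 is known to shuttle between endosomes and the Golgi. LRP11 is a smaller transmembrane member whose role in liver cells is little described.

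Depth was 28866175 to 45120508 assigned reads per library in WT, 27527854 to 33865386 in shTST and 22911380 to 27414142 in overTST. TST, the targeted gene, was counted at 47.2, 47.5, 52.8 and 48.5 CPM (counts scaled to equal library size) in WT, at 32.99, 33.6, 36.6 and 33.5 in shTST and at 51.8, 56.0, 61.6 and 62.1 in overTST. The log2 fold change of TST against WT was -0.52 ± 0.055 (SE, edgeR adjusted p = 3.2e-06, n = 4 per group) in shTST and 0.24 ± 0.062 (adjusted p = 0.00384) in overTST, a call lost with the trend of counts with gene length removed (0.097, adjusted p = 0.201). How far reads of the codon-optimized transcript were counted for the human gene is not known. The paper checked both lines by western blot. There, added cyanide was broken down more by the overexpressing cells and less by the silenced cells. Hepatocyte markers were high in every library, with a summed level of 23272 to 30118 CPM for 9 genes. Of other cell types, 7 fibroblast markers summed to 21.6 to 25.2 CPM in WT, 17.0 to 19.4 in shTST and 15.9 to 17.9 in overTST, nearly all of it PDGFRB, with LUM and THY1 at 0 in all libraries. The 5 endothelial markers summed to 2.51 to 3.29 CPM in WT, 1.84 to 2.16 in shTST and 3.40 to 3.91 in overTST, with KDR at 0. The 6 leukocyte markers summed to 1604 to 1680 CPM in WT, 1334 to 1490 in shTST and 1503 to 1749 in overTST, nearly all of it LYZ, with PTPRC and CD3E at no more than 1 count. All 3 sums were lower in shTST than in WT without overlap, and in overTST the fibroblast sum was lower and the endothelial sum higher. Their part in the values of the receptors was not tested. All libraries came from the HepG2 line, and in bulk RNA fewer cells holding a gene's RNA and less RNA per cell cannot be told apart.

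In WT cells the family spanned a wide range of levels. Per kilobase of exonic length (RPKM), LRP5 was highest at 59.6 ± 4.39 (SD, n = 4), followed by LRP3 at 35.4 ± 2.14 and LRP1 at 25.8 ± 1.47, with no overlap between neighbours in this order. LRP10 at 12.7 ± 0.826 and LRP11 at 11.4 ± 0.760 RPKM overlapped, as did SORL1 at 3.10 ± 0.161 and LRP6 at 3.09 ± 0.276. LRP4 followed at 1.95 ± 0.203, LRP8 at 1.26 ± 0.116 and LRP12 at 0.156 ± 0.0348 RPKM. The Wnt coreceptor pair was thus represented mainly by LRP5. In both lines LRP11 stood above LRP10 without overlap, at 12.9 against 8.36 RPKM in shTST and 11.2 against 8.45 RPKM in overTST, and in overTST LRP4 at 1.28 overlapped with LRP8 at 1.21 RPKM.

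The genes differ in size, which matters for the comparisons below. Their exons as counted cover 20839 bases for LRP1 (ENSG00000123384, chr12:57128493-57213351, plus strand, GRCh38), 19449 for SORL1 (ENSG00000137642, chr11:121452203-121633693, plus), 10337 for LRP6 (ENSG00000070018, chr12:12116025-12267012, minus) and 10258 for LRP8 (ENSG00000157193, chr1:53242364-53328070, minus). The remaining genes are LRP12 with 9777 bases (ENSG00000147650), LRP4 with 8597 (ENSG00000134569, chr11:46856868-46918642, minus) and LRP10 with 7112 (ENSG00000197324, chr14:22871613-22881580, plus). LRP5 has 6164 (ENSG00000162337, chr11:68312609-68449275, plus), LRP3 5095 (ENSG00000130881, chr19:33177603-33208867, plus) and LRP11 3536 (ENSG00000120256, chr6:149818798-149864026, minus). Exons of 5 of the genes overlap exons of other genes, and whether strand was used in counting is not given in the sources used here. The overlap covers 59 bases of LRP1 with STAT6, 204 of LRP3 with SLC7A10, 515 of LRP4 with LRP4-AS1, 346 of LRP8 with MAGOH-DT and 533 of LRP11 with RAET1E-AS1, all on the opposite strand, and further overlapping genes had medians of at most 6 counts. The last is 15.1% of the LRP11 exons, and RAET1E-AS1 had a median of 105 counts, so the values of LRP11 are less certain than the others.

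The DNA before the start sites of 3 genes is shown, for LRP1 and LRP10, the pair picked for its fall, and for LRP5, the member with the highest RPKM. The sequences are from RefSeq (GRCh38.p14), 5′ to 3′ on the strand of the gene, with capitals for the GC box GGGCGG on either strand and, in LRP1, for the motif of nuclear respiratory factor 1, the capital run nearer its start.
LRP1 chr12:57128233-57128482 plus: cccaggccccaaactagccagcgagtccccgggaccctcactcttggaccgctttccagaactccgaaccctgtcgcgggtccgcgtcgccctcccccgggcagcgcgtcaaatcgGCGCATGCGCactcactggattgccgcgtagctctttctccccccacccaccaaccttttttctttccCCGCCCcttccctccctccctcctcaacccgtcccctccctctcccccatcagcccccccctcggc
LRP5 chr11:68312341-68312590 plus: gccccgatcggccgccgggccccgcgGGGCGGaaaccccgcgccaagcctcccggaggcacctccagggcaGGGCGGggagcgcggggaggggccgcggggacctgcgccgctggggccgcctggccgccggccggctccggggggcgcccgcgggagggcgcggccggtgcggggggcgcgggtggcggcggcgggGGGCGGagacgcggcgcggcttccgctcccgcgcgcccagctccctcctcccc
LRP10 chr14:22871490-22871612 plus: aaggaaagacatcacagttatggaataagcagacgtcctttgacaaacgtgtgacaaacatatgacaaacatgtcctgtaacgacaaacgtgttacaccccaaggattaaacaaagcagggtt
RefSeq promoters matched 7 of the 10 genes, not LRP4, LRP6 and LRP12. In the 250 bases before the RefSeq start, the GC box, searched on both strands, was found in 6 of the 7 and in 42.6% of 35116 promoters, and LRP10 was the member without it. LRP10 held the CCAAT box (32.0% of promoters), which was found in none of the other 6. That box does not lie within the 123 bases shown for LRP10. LRP1 held the nuclear respiratory factor 1 motif (1.03% of promoters). The E-box CACGTG was found before LRP3 and SORL1 (6.35% of promoters), and TATAAA (10.7%) before none of the 7. GC content of the 250 bases was 87.2% for LRP5, 67.6% for LRP1 and 51.6% for LRP10, against a median of 58.0% over all promoters. For LRP10 the shown stretch ends before the first base of the gene in the count files, which lies 127 bases upstream of the RefSeq start, and for LRP3 the RefSeq start lies 16727 bases inside the counted gene. These matches describe letters and were not related to the changes in counts.

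The first question was how the receptors stood in each line against WT. Among the 8 genes tested, LRP3, LRP5 and SORL1 fell in shTST, and LRP4, LRP5, LRP6 and SORL1 fell in overTST, while none rose past the threshold in either line (edgeR, adjusted p of 0.05 or less over all genes tested). Over all genes, 9.40% of 14584 were lower and 6.69% higher in shTST, and 18.2% of 14421 lower and 15.7% higher in overTST. The median log2 fold change of these 8 genes was -0.13 in shTST and -0.21 in overTST, beside 0.0040 and 0.0019 for all genes tested. Both comparisons share the WT libraries. All libraries of the line lay below all WT libraries for 2 of the 8 in shTST, LRP5 and SORL1, and for 4 of the 8 in overTST, LRP4, LRP5, LRP6 and SORL1, against 10.8% and 16.2% of all genes tested.

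LRP1, the large endocytic receptor, had 513, 580, 538 and 518 CPM in WT, 407, 463, 441 and 479 in shTST and 341, 354, 312 and 303 in overTST. All libraries of both lines lay below all WT libraries, and overTST lay below shTST without overlap. The mean fell from 537 ± 30.6 CPM (SD, n = 4) to 448 ± 31.0 and 327 ± 23.97, a log2 fold change of -0.26 ± 0.052 (SE) in shTST and -0.72 ± 0.055 in overTST. LRP1 rested on 6665 to 26421 reads per library.

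LRP10 had 83.8, 98.1, 89.3 and 90.1 CPM in WT, 57.0, 63.3, 57.5 and 60.1 in shTST and 61.5, 61.9, 60.4 and 56.4 in overTST. Both lines lay below WT without overlap and at levels that overlapped with each other. The log2 fold change was -0.60 ± 0.052 in shTST, -0.59 ± 0.055 in overTST, and 0.015 ± 0.054 between the lines. The pair picked for its fall therefore differed in pattern, with LRP1 lowest in overTST and LRP10 about equally low in both. Taken within each library, where library scaling cancels, LRP1 had 5.75 to 6.12 reads for each read of LRP10 in WT. The ratio was 7.14 to 7.96 in shTST and 5.16 to 5.71 in overTST, and the 3 ranges did not overlap. The trend with gene length does not cancel in this ratio. With that trend removed, both genes were at -0.50 in overTST against WT on the log2 scale.

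SORL1, the sorting receptor, had 63.6, 62.3, 56.9 and 58.5 CPM in WT, 48.7, 50.5, 52.0 and 54.96 in shTST and 47.1, 40.5, 40.6 and 39.4 in overTST. It was stepwise lower, with no overlap between any of the groups. The log2 fold change was -0.23 ± 0.052 in shTST (edgeR adjusted p = 0.00487) and -0.53 ± 0.062 in overTST (adjusted p = 1.2e-06), and the difference between the lines was -0.30 ± 0.060 (adjusted p = 4.4e-04). That last difference did not pass once the trend with gene length was removed (-0.11, adjusted p = 0.128).

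The Wnt coreceptors moved to different extents in the lines. LRP5 had 337, 403, 362 and 369 CPM in WT, 276, 288, 314 and 305 in shTST and 302, 328, 336 and 330 in overTST, so that all libraries of both lines lay below WT. Its log2 fold change was -0.31 ± 0.052 in shTST (edgeR adjusted p = 3.7e-04) and -0.18 ± 0.054 in overTST (adjusted p = 0.0106), and the difference between the lines, 0.13 ± 0.053, did not pass (adjusted p = 0.0573). It passed in 8 of 11 alternative analyses but was at 0.0017 with GC content corrected (adjusted p = 0.983), and it passed without WT replicate 1 (adjusted p = 0.0484), WT replicate 2 (0.0352), shTST replicate 3 (0.0295) or overTST replicate 1 (0.0177). The fall in overTST did not pass with the length trend removed (-0.11, adjusted p = 0.121).

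LRP6 had 32.1, 35.8, 29.1 and 30.7 CPM in WT, 32.1, 27.7, 29.4 and 29.6 in shTST and 23.5, 22.8, 23.97 and 20.1 in overTST. Only the overTST libraries stood apart from WT, below all of the others. The log2 fold change was -0.50 ± 0.074 in overTST (edgeR adjusted p = 1.7e-05), -0.11 ± 0.066 in shTST (adjusted p = 0.289), and -0.39 ± 0.072 between the lines (adjusted p = 1.8e-04). Within a library, LRP5 had 10.5 to 12.4 reads for each read of LRP6 in WT, 8.59 to 10.7 in shTST and 12.9 to 16.4 in overTST, with overTST above both other groups and shTST overlapping with WT. Trends with gene length and GC content do not cancel in this ratio. With the length trend removed, LRP5 was at -0.11 and LRP6 at -0.35 in overTST against WT on the log2 scale.

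LRP4, the agrin receptor, had 16.4, 19.2, 15.0 and 16.6 CPM in WT, 16.8, 15.2, 17.3 and 15.3 in shTST and 12.8, 11.7, 10.9 and 8.68 in overTST. As for LRP6, shTST overlapped with WT and overTST lay below both. The log2 fold change was -0.60 ± 0.10 in overTST (edgeR adjusted p = 6.0e-05), -0.058 ± 0.078 in shTST (adjusted p = 0.665) and -0.55 ± 0.097 between the lines (adjusted p = 1.3e-04).

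LRP3, of the branch with CUB domains, had 166, 185, 191 and 180 CPM in WT, 144, 154, 174 and 165 in shTST and 164, 206, 178 and 186 in overTST. The groups overlapped in each comparison. Its fall in shTST, -0.18 ± 0.054 (edgeR adjusted p = 0.0263), was a call lost under several settings. So was its higher level in overTST than in shTST, 0.20 ± 0.062 (adjusted p = 0.0134). The first did not pass with the trend with GC content removed (-0.074, adjusted p = 0.222) or without WT replicate 3 (adjusted p = 0.0744), WT replicate 4 (0.0621), shTST replicate 1 (0.140) or shTST replicate 2 (0.0768). The second did not pass with GC content corrected (0.045, adjusted p = 0.476) or without shTST replicate 1 (0.0656) or overTST replicate 2 (0.0875). Against WT, LRP3 was at 0.024 ± 0.060 in overTST (adjusted p = 0.792).

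LRP11 had 41.4, 36.7, 43.1 and 40.4 CPM in WT, 49.6, 40.4, 45.2 and 47.7 in shTST and 40.9, 36.4, 40.8 and 40.1 in overTST. Its value in shTST was positive, 0.18 ± 0.063, just outside the threshold (edgeR adjusted p = 0.0542) and past it in 8 of 11 alternative analyses and without WT replicate 3 (0.0311) or shTST replicate 2 (0.0119). Between the lines it was lower in overTST (-0.21 ± 0.065, adjusted p = 0.0145), a call lost without shTST replicate 1 (0.0693), shTST replicate 4 (0.0513) or overTST replicate 2 (0.0646). Against WT it was at -0.028 ± 0.063 in overTST (adjusted p = 0.765).

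LRP8, the reelin receptor, had 11.3, 14.2, 13.2 and 13.1 CPM in WT, 11.2, 11.99, 12.9 and 12.9 in shTST and 12.5, 11.1, 11.5 and 14.4 in overTST. Its groups overlapped, with log2 fold changes of -0.084 ± 0.081 in shTST (edgeR adjusted p = 0.531) and -0.072 ± 0.093 in overTST (adjusted p = 0.587). LRP12 was counted at only 11 to 91 reads per library, and its changes of -0.14 ± 0.21 in shTST (adjusted p = 0.700) and -0.23 ± 0.26 in overTST (adjusted p = 0.527) had wide errors. Changes of the size called for LRP5 were close to the SE of LRP12 and so were not detectable at this depth. LRP12 lies at chr8:104489231-104589024 (minus strand).

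Changes in overTST went with exonic length over all genes. Spearman's rho across genes, which are not independent, was -0.404 in overTST and -0.0900 in shTST. Of genes with up to 2000 exonic bases 2.40% were lower in overTST, against 22.2% between 4000 and 8000, 41.3% between 8000 and 16000 and 44.6% above 16000, so that LRP4 and LRP6 belong to a class of which 41.3% fell and SORL1 to one of which 44.6% fell. In shTST the shares lower in the same classes were 4.05%, 11.2%, 13.3% and 13.7%. The trend at the length of LRP1 was -0.22 in overTST, and at that of LRP10 -0.088.

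With the trend removed in each library, the log2 fold changes in overTST were -0.50 for LRP1, -0.50 for LRP10, -0.48 for LRP4 (edgeR adjusted p = 3.7e-04), -0.35 for LRP6 (adjusted p = 3.8e-04) and -0.31 for SORL1 (adjusted p = 1.1e-04). Each kept its direction at a smaller size, and LRP1 no longer exceeded LRP10. LRP8, with nearly the exonic length of LRP6, was at -0.072 where the trend stood at -0.15, above the trend, while LRP6 lay below it. In shTST the correction moved little, to -0.23 for LRP1, -0.59 for LRP10, -0.30 for LRP5 and -0.20 for SORL1 (adjusted p = 0.00752), and brought LRP11 past the threshold (0.18, adjusted p = 0.0441). Between the lines LRP1 was at -0.26 and LRP10 at 0.091 after correction, and LRP5 was then higher in overTST than in shTST (0.19, adjusted p = 0.00701), a difference that GC correction in its place took to 0.0017.

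Between the lines themselves, LRP4, LRP6, LRP11 and SORL1 were lower and LRP3 higher in overTST than in shTST, with 16.9% of 14883 genes lower and 16.1% higher. Of genes with 8000 to 16000 exonic bases, the class of LRP4 and LRP6, 36.8% were lower. The share was 43.6% above 16000 bases, the class of SORL1, and 7.29% between 2000 and 4000, that of LRP11. Of the 8, LRP4, LRP6 and SORL1 lay below shTST without overlap, as did 14.5% of all genes. Whether these differences go with the direction of the change in TST cannot be told apart from differences between 2 separately selected lines.

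Other receptors with LDL receptor repeats or a VPS10P domain were examined as a group of 13, of which 9 were tested. In shTST 2 fell and 1 rose, with 9.40% of all genes lower and 6.69% higher, and in overTST 4 fell and none rose, with 18.2% lower and 15.7% higher. VLDLR, which binds reelin like LRP8, fell by 0.45 ± 0.10 on the log2 scale in shTST (edgeR adjusted p = 0.00445) and by 0.74 ± 0.11 in overTST (adjusted p = 1.7e-05), from 8.26 CPM in WT. The VPS10P receptors SORT1 and SORCS2 fell in overTST, by 0.32 ± 0.054 (adjusted p = 6.5e-05) and 0.81 ± 0.13 (adjusted p = 4.1e-05), and were at -0.012 and -0.085 in shTST. With the length trend removed SORT1 was at -0.19 in overTST (adjusted p = 0.0105). LDLRAD1 rose in shTST (0.71 ± 0.13, adjusted p = 5.9e-04), from a low level of 2.66 CPM, and was at 0.072 in overTST. CD320, LDLRAD2, LDLRAD3 and LDLRAD4 did not pass in either line, with values between -0.10 and 0.56. LRP2 and LRP1B, the other giant receptors of the family, and SORCS1 and SORCS3 were too low to test, LRP2 at 0.212 CPM in WT.

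Of the ligands, 5 were higher and 5 lower of 23 tested in shTST (all genes 6.69% and 9.40%), and 5 higher and 7 lower of 22 tested in overTST (all genes 15.7% and 18.2%). RELN, the ligand of LRP8 and VLDLR, went from 448 CPM in WT to 165 in overTST, a log2 fold change of -1.44 ± 0.075 (edgeR adjusted p = 5.1e-12). APOB, the structural protein of LDL, fell in overTST (-0.55 ± 0.067, adjusted p = 1.5e-06) and APOE, a remnant ligand of LRP1, rose (0.34 ± 0.086, adjusted p = 0.00325) with overlapping groups. With the length trend removed they were at -0.36 (adjusted p = 8.3e-05) and 0.21 (adjusted p = 0.0384). CALR, a chaperone that also binds LRP1 at the surface, rose in both lines, by 0.33 ± 0.055 in shTST (adjusted p = 3.6e-04) and 0.26 ± 0.053 in overTST (adjusted p = 5.2e-04, and 0.17 with the length trend removed). In shTST, THBS1 rose (0.36 ± 0.061, adjusted p = 3.7e-04) and the metalloprotease inhibitor TIMP1 (-0.47 ± 0.077, adjusted p = 2.8e-04) fell.

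Chaperones, sorting adaptors and proteases counted 1 higher and 2 lower of 27 tested in shTST, no more than the 6.69% and 9.40% of all genes. In overTST they counted 4 higher and 8 lower of 27, against 15.7% and 18.2%. With the length trend removed, fewer of the 27 were lower in overTST. Over all 14421 genes, 2058 were then lower instead of 2628. MESD, the chaperone that folds LRP5 and LRP6, rose slightly in both lines, by 0.14 ± 0.042 (edgeR adjusted p = 0.0237) and 0.16 ± 0.048 (adjusted p = 0.0112, and 0.26 with the length trend removed). In shTST the adaptor SHC1 (-0.31 ± 0.053, adjusted p = 4.9e-04) and the convertase FURIN (-0.27 ± 0.054, adjusted p = 0.00190) fell. In overTST PSEN2 of gamma-secretase rose (0.23 ± 0.074, adjusted p = 0.0162), and the ectodomain sheddases ADAM17 (-0.39 ± 0.076, adjusted p = 3.7e-04) and ADAM10 (-0.28 ± 0.058, adjusted p = 5.1e-04) fell, the call for ADAM10 being lost with the length trend removed (-0.084, adjusted p = 0.233).

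Of the Wnt receptor complex, 1 gene rose and 8 fell of 32 tested in shTST, and 3 rose and 13 fell in overTST. Over all genes 6.69% were higher and 9.40% lower in shTST, and 15.7% and 18.2% in overTST. DKK1, the secreted inhibitor that binds LRP5 and LRP6, rose in shTST (0.34 ± 0.064, edgeR adjusted p = 0.00112) and overTST (0.50 ± 0.068, adjusted p = 6.2e-06), and DKK4 rose in overTST from 4.53 to 8.20 CPM (0.87 ± 0.12, adjusted p = 6.8e-06). CSNK1A1, a kinase of the beta-catenin destruction complex, fell in both (-0.32 ± 0.047, adjusted p = 9.5e-05, and -0.70 ± 0.059, adjusted p = 1.3e-08). TMEM198, a membrane protein that binds LRP6, fell in shTST (-0.45 ± 0.063, adjusted p = 6.9e-05) and CTNNB1, beta-catenin itself, in overTST (-0.43 ± 0.063, adjusted p = 1.7e-05). Over the 4 lists together, 8 genes were higher and 17 lower of 91 tested in shTST, and 12 higher and 32 lower of 90 in overTST, beside the same shares of all genes, with medians of -0.0076 and -0.11. The shares of all genes given beside the lists were not matched for gene length.

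The patterns of LRP1 and LRP10 over the 12 libraries were set beside those of other genes, with the length trend left in. By Pearson's r of log2 CPM among 11564 genes, LRP1 was closest to PI4KA (0.991), HSPG2 (0.986) and CTDSP2 (0.984), and LRP10 to SLC2A1 (0.970), MARS1 (0.969) and CUL7 (0.966). PI4KA is a lipid kinase, HSPG2 encodes perlecan and SLC2A1 encodes a glucose transporter. PI4KA, HSPG2 and CTDSP2 have 11407, 17684 and 5442 exonic bases. Within the family, LRP1 was closest to SORL1 (0.947, rank 83 of the 11564 genes) and LRP10 to LRP5 (0.813, rank 423). LRP1 and LRP10 had an r of 0.769 with each other. These values describe 12 libraries that fall into 3 groups.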

How the data were processed

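RNA-seq gene counts of 12 HepG2 libraries (4 WT, 4 shTST, 4 overTST) were used as deposited. The authors' raw counts per gene came from reads trimmed with Trimmomatic 0.36, aligned to GRCh38 with STAR 2.5.2b and counted with featureCounts of Subread 1.5.2, according to the submitters' processing notes. The annotation release, the treatment of multimapping reads and the use of strand are not given in the sources used here. Ensembl identifiers were matched to symbols (56410 of 57500). Depth per library was 22911380 to 45120508 counts, and precision at low counts is limited by counting error.

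The 8 libraries of a line and of WT were fitted together, and all 12 for overTST against shTST, with edgeR 4.0.16 (TMM, filterByExpr, quasi-likelihood test, two-sided) in R 4.3.3 and Benjamini-Hochberg adjustment over all genes tested at 0.05. The biological coefficient of variation was 5.85% to 6.41%. Log2 fold changes are given with standard errors. CPM used TMM factors over all libraries, and RPKM divided CPM by the exonic length in the count files. Length and GC corrections removed a lowess trend (span 0.3) in each library. Alternatives used DESeq2 1.42.0, limma 3.58.1 (voom), other normalizations, filters and sets of libraries, a replicate block, and leaving out each library in turn. Fits were tested on simulated data. Replicate pairs differed by more than sampling noise, most in WT. The chi-square per gene was 5.87 to 35.3 in WT, 4.41 to 8.20 in shTST and 3.58 to 9.64 in overTST.

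The receptor genes and partner lists were chosen with earlier results of these data known. Named genes were the 10 receptor genes, TST, all tested genes of the list of other receptors, up to 2 higher and 2 lower genes of smallest p in each other partner list and comparison with WT, genes overlapping the receptor genes, and the 3 genes closest to LRP1 and to LRP10 (of the genes averaging at least 1 in log2 CPM). The counts over the lists include 2 genes whose own values are not reported here. Figures were drawn with Python 3.11.15 and matplotlib 3.10.9.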

Additional observations from a re-analysis of the deposited data

Results flagged for a closer look

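In 4 libraries of a group, a single library stood far from the others in 2 of the 30 combinations of gene and group examined, and chance alone gives about 1 in 20. LRP12 had 0.466 CPM in overTST replicate 2, against 1.57 to 1.64 CPM in the other overTST libraries, and SORL1 had 47.06 CPM in overTST replicate 1, against 39.4 to 40.6 CPM.

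The effects in the lines differed by a test of overTST against shTST for 5 of the 8 genes tested, with 16.1% of all genes higher and 16.9% lower. The share lower was 36.8% between 8000 and 16000 exonic bases, the class of LRP4 and LRP6, and 43.6% above 16000, that of SORL1. The log2 difference (overTST minus shTST, edgeR) was 0.2039 for LRP3, -0.5469 for LRP4, -0.393 for LRP6, -0.2085 for LRP11 and -0.2978 for SORL1. LRP4 and LRP6 did not overlap between the lines, nor did SORL1, whose difference did not pass with the length trend removed (-0.11, adjusted p = 0.128). Over all genes tested, 14.5% lay lower in overTST without overlap. The difference of LRP3 did not pass with GC content corrected (0.045, adjusted p = 0.476). That of LRP11 did not pass without shTST replicate 1 (adjusted p = 0.0693), among others.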

How the results depend on the processing

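The falls of LRP5 and SORL1 in shTST and of LRP4, LRP6 and SORL1 in overTST passed in all 11 alternatives and without any 1 of the 8 libraries of their comparison. In shTST the count of higher receptor genes was 0 and became 1, LRP11, with DESeq2, limma-voom, RLE or upper-quartile normalization, the filter on 1 CPM, the length correction, the replicate block, and length correction with the block. Between the lines it was 1 and became 2, with LRP5, under DESeq2, limma-voom, upper-quartile normalization, the filter on 1 CPM, the 8 libraries of both lines alone, the block, the length correction and both of these together, and 0 with GC correction. Partner genes higher in shTST went from 8 to 13 with length correction and replicate block, and those higher in overTST from 12 to 7 without a filter. Leaving out 1 library gave 0 to 1 receptor genes higher in shTST and 2 to 3 lower, 4 to 4 lower in overTST, and 0 to 2 higher and 3 to 4 lower between the lines. Partner genes ranged from 6 to 10 higher and 11 to 16 lower in shTST (11 without WT replicate 4, shTST replicate 1 or shTST replicate 2), from 6 to 13 higher and 28 to 30 lower in overTST (6 without overTST replicate 3), and from 10 to 17 higher and 27 to 34 lower between the lines. The causes were not tested. Upper-quartile normalization changed the split of all genes called from 975 higher and 1371 lower to 1284 and 1151 in shTST, and from 2265 and 2628 to 2700 and 2292 in overTST. Libraries with the same replicate number did not deviate together throughout (correlations of -0.125 to 0.207, and 5 of 12 correlated best with their own number), so the numbers were not taken to pair the libraries, and the block raised the genes called from 2346 to 2980 in shTST, from 4893 to 5166 in overTST and from 4907 to 5232 between the lines. Depth limits LRP12.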
